A study of Mus musculus with 3 samples.

Results

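The S100 genes encode small calcium-binding proteins, and 8 of them were followed here by their symbols among the 27998 genes measured in 3 single-cell libraries of mouse myeloid cells. They were S100a1, S100a4, S100a6, S100a8, S100a9, S100a10, S100a11 and S100a13. The first library came from a subcutaneous B16-F10 melanoma of a Treg-depleted mouse that carried the FoxP3 DTR allele, which puts the diphtheria toxin receptor under the control of Foxp3, the defining gene of regulatory T (Treg) cells. The other two came from the tumor and from the blood of control wild-type mice bearing the same tumor, and all mice were C57BL/6J. The depleting agent, its dose and the animals' age are not given in the labels. The allele and the depletion came together, so their parts cannot be told apart. Each group had 1 library, the number of control mice is not given, and no p-value, SD or standard error is reported.

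Cells were taken by flow sorting as live CD45+ cells with CD11b, CD11c or both, after cells staining for CD90, NK1.1, Ly6G, B220 or SigF had been excluded. The sort against the Ly6G protein aims to remove neutrophils, which bears on S100a8 and S100a9. A barcode was kept with 1000 or more unique molecular identifiers (UMIs, 1 per captured RNA molecule), 400 or more genes and no more than 10% of UMIs from mitochondrial genes. They numbered 4434, 4443 and 5550 in the Treg-depleted tumor, the control tumor and the control blood, with medians of 3820, 6452 and 3550 UMIs. A barcode was assigned to a type by its markers, among which no S100 gene was listed, and between 66.1% and 79.2% of barcodes per library got a type. Between 27 and 36 kept barcodes were shared by any pair of libraries. Classical monocyte-gated cells numbered 1592, 955 and 2897 in that order, macrophage-gated cells 899, 1822 and 27, and neutrophil-gated cells 167, 44 and 91. Each of the 8 markers of these 3 types reached 20 CPM (UMIs of a gene scaled to the total UMIs of its type) in its own cells in both tumors. In blood, 62 further cells carried the granule genes of maturing neutrophils (Ngp, Camp, Ltf) and are called granule-stage neutrophils. Ly6g RNA stood at 1016 CPM in them, 39.0 CPM in neutrophils of the Treg-depleted tumor, 0 CPM in those of the control tumor and 58.8 CPM in those of blood, so cells of the excluded kind were still present.

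As background, S100a8 and S100a9 form calprotectin, a heterodimer that fills the cytosol of neutrophils, binds calcium and zinc, and acts as a danger signal on TLR4 and the receptor RAGE (Ager) once released. Monocytes are also known to carry it, at lower amounts. S100a4 binds nonmuscle myosin and is linked to cell migration, S100a6 (calcyclin) binds annexins, S100a10 is the partner chain of annexin A2, and S100a11 binds annexin A1. S100a13 takes part in the release of proteins that lack a signal peptide, and S100a1 is best known from heart muscle.

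The genes lie in 2 groups on chromosome 3 (GRCm38, GENCODE M21). S100a1 (90511034 to 90514392, minus strand), S100a13 (90514435 to 90524581, plus), S100a4 (90603771 to 90606045, plus), S100a6 (90612882 to 90624181, plus), S100a8 (90668978 to 90670035, plus) and S100a9 (90692632 to 90695721, minus) span 184688 bases. S100a11 (93520488 to 93526287, plus) and S100a10 (93555080 to 93564643, plus) follow after 2824766 bases. S100a1 and S100a13 start 42 bases apart and point away from each other, while S100a8 and S100a9 point towards each other across 22596 bases. The counts of S100a11 are less certain, since reads that also fit its annotated pseudogene, S100a11-ps, could have been lost in the counting.

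RefSeq (GRCm38.p6) gave a promoter for 7 of the 8 genes. The bases before the start of S100a8 and S100a9 are shown because their RNA levels ran closely together across types, and those of S100a4 because its pattern across types was another. The first 250 bases before each start were searched on both strands for the TATA box (TATAAA), a C/EBP motif (TTNNGCAA), a PU.1 motif (GAGGAA) and an AP-1 motif (TGANTCA). Capitals mark the matches. Each is written 5′ to 3′ on the strand of the gene, and bases in exons of any GENCODE transcript are left out.
S100a8, chr3:90668821-90668977, plus strand: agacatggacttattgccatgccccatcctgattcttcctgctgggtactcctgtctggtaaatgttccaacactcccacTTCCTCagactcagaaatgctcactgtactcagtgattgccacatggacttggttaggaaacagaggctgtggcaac
S100a9, chr3:90695722-90695971, minus strand: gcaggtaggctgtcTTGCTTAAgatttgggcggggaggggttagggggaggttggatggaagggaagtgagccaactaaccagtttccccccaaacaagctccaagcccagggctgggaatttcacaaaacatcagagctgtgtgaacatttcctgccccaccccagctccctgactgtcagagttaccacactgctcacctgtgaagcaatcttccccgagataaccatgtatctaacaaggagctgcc
S100a4, chr3:90603520-90603769, plus strand: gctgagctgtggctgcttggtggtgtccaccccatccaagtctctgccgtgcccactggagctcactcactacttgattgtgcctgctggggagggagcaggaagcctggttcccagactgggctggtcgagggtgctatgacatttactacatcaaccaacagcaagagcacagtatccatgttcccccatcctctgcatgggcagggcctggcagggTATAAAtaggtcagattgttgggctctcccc
The TATA box letters occurred 31 to 26 bases before the start of S100a4 and, in an annotated exon and so not shown, 30 to 25 bases before that of S100a8. They were in 12.3% of 32526 RefSeq promoter windows of this length. The PU.1 letters, present in 23.4% of windows, occurred at S100a8 (on the opposite strand) and at S100a11. The C/EBP letters, in 9.57% of windows, occurred at S100a9 alone of the 7, and the AP-1 letters, in 6.73%, at S100a11. S100a1, S100a6 and S100a13 held none of the 4 motifs in this window. These matches describe letters and show no binding.

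S100a8 and S100a9 were neutrophil genes in these libraries by a wide margin. S100a8 stood at 21779 CPM in neutrophils of the Treg-depleted tumor, 11031 CPM in those of the control tumor and 71218 CPM in those of control blood, and at 184822 CPM (182899 to 186761, the 95% exact Poisson interval) in granule-stage neutrophils. Intervals here and below cover counting error only, and not the spread between mice. In the Treg-depleted tumor 1 neutrophil held 1023 of the 8387 S100a8 UMIs, so intervals built on that sum are too narrow. The median neutrophil held 21 S100a8 UMIs there and 23 in the control tumor, at median depths of 1834 and 1448 UMIs. In classical monocytes S100a8 stood at 138 CPM in the Treg-depleted tumor, 19.4 CPM in the control tumor and 288 CPM in control blood. S100a9 followed the same order, with 140790 CPM in granule-stage neutrophils and 43.5, 11.3 and 217 CPM in the classical monocytes of the 3 libraries. Over the 19 library-by-type values with at least 50 cells, the Pearson correlation of log2(CPM + 10) between S100a8 and S100a9 was 1.00, as a description of values that share libraries and depth.

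**Figure D1:**
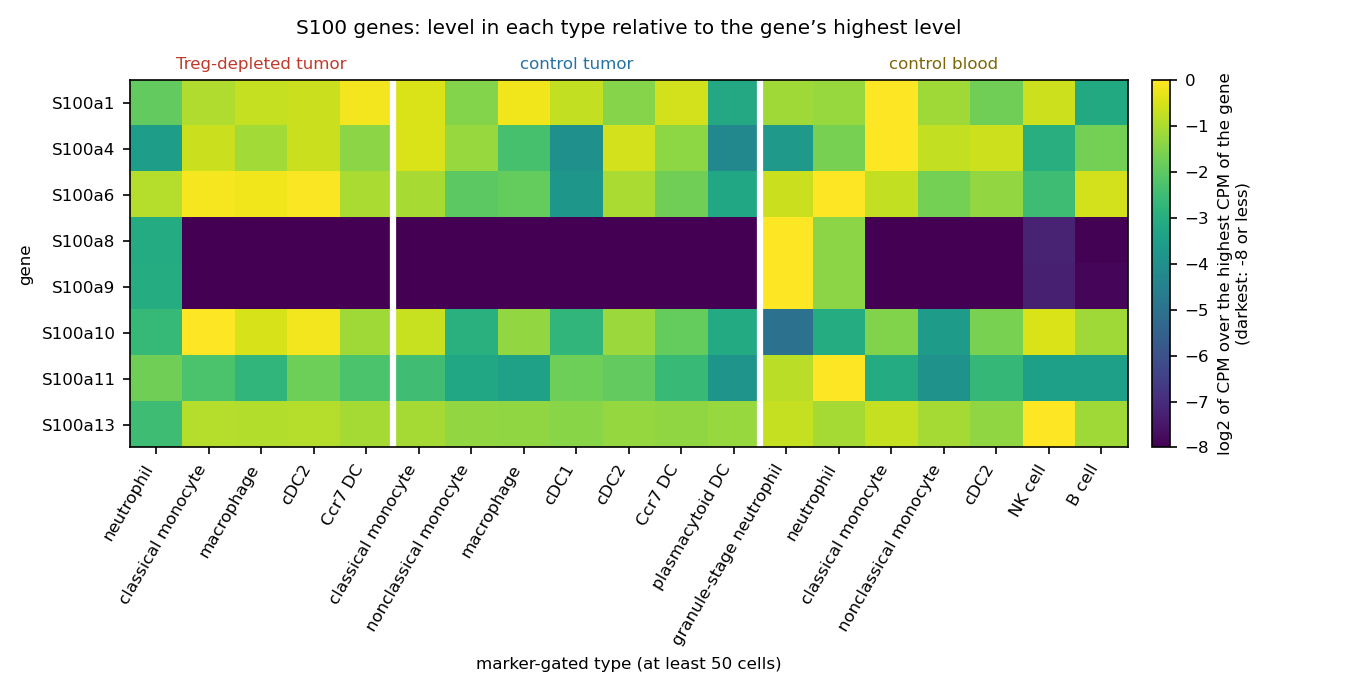
Level of each S100 gene (rows) in each marker-gated type of at least 50 cells (columns, by library), as log2 of its CPM over the highest CPM of that gene, so that shades compare types within a row and not genes. S100a8 and S100a9 were at 184822 and 140790 CPM in granule-stage neutrophils and at most 1242 and 901 CPM outside neutrophils, whereas S100a13 lay between 83.1 and 463 CPM in all types shown.

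Within control blood, granule-stage and other neutrophils together exceeded classical monocytes in S100a8 by 8.83 on the log2 scale. In neutrophils alone against classical monocytes, S100a8 and S100a9 were each 7.95 higher (7.89 to 8.01 for S100a8) and S100a11 3.07 higher, at 6901 against 822 CPM. S100a4 was 1.65 lower in neutrophils on that scale, at 465 against 1464 CPM, and S100a10 was at 265 against 762 CPM. So 3 members were higher and 3 lower by 2-fold or more, S100a1 with only 5 UMIs in neutrophils. Among all genes 22.8% were that much higher and 21.2% lower, 44.1% in all. Within the Treg-depleted tumor, neutrophils exceeded classical monocytes in S100a8 by 7.31 (7.21 to 7.40) and in S100a9 by 8.61. S100a4 (127 against 946 CPM) and S100a10 (353 against 2195 CPM) were lower in neutrophils here too, and S100a13 was lower at 83.1 against 250 CPM, giving 2 higher and 3 lower, beside 9.49% and 42.3% of all genes (51.8% in all).

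Neutrophil-gated cells were not alike across tissues. Those of the Treg-depleted tumor held 21779 CPM of S100a8 against 71218 CPM in those of control blood, 16954 against 53697 CPM of S100a9, 2070 against 6901 CPM of S100a11 and 127 against 465 CPM of S100a4. With S100a13, at 83.1 against 218 CPM, 5 members were at least 2-fold lower in the tumor, beside 28.2% of all genes lower, 37.2% higher and 65.4% past 2-fold either way. This comparison crosses tissue and Treg depletion, which cannot be told apart in it. Of neutrophil-gated cells 11.4% in the Treg-depleted tumor, 18.2% in the control tumor and 0% in blood had no S100a8 UMI. The 8 such cells of the control tumor had a median of 5888 UMIs, against 1308 in its 29 cells with at least 10. Markers of cDC2 summed to 2366, 1516 and 994 CPM in neutrophils of the 3 libraries, with 2, 3 and 2 of the 8 at 0. Those of classical monocytes went the other way, at 2298, 3851 and 3901 CPM. So did those of macrophages, at 288, 1077 and 2600 CPM. The part of other cells in the gate was not tested. In the 44 neutrophils of the control tumor S100a8 stood at 11031 CPM and S100a11 at 3337 CPM, also below blood. S100a4 stood at 571 CPM (445 to 723) in them, against 465 CPM (368 to 579) in blood. However, 1 cell held 32 of those 69 S100a4 UMIs, so the interval is too narrow and the level rests largely on that cell. Granule-stage neutrophils had 1.38 more S100a8 on the log2 scale than the other blood neutrophils and 2.01 less S100a4, with 2 members higher and 2 lower by 2-fold or more, beside 5.75% and 34.0% of all genes (39.8% in all).

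In blood, the S100a8 counted in monocytes was no higher than in lymphoid cells of the same library. Classical monocytes had 288 CPM and nonclassical monocytes 491 CPM, against 1242 CPM in NK cells and 747 CPM in B cells. The lymphoid levels rest on few cells, since 5 NK cells held 308 of 357 S100a8 UMIs and 3 B cells held 153 of 194. Barcodes of 1 to 10 UMIs, which hold mainly RNA free in the suspension, had 5277 CPM. After each cell had been thinned to 1000 UMIs, 11.8% (10.7 to 13, exact binomial interval) of classical monocytes held an S100a8 UMI, against 16.6% (11.3 to 23.0) of NK cells and 16% (8.83 to 25.9) of B cells. Before thinning the shares were 35.3%, 25.4% and 38.3%, at median depths of 3774, 1455 and 2285 UMIs. The share in blood monocytes was thus no higher than in cell types not known to make the gene. Subtracting free RNA raised the log2 excess of granule-stage and other neutrophils over them in S100a8 to 10.92 with a free share of 3.81%, and to 15.23 with the share of 5.71% estimated from barcodes of 11 to 100 UMIs. Those barcodes had 4956 CPM of S100a8, so that share takes away nearly all of the 288 CPM of the monocytes. The 15.23 therefore does not measure a level. How much of the monocyte S100a8 was free RNA was not tested.

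**Figure D2:**
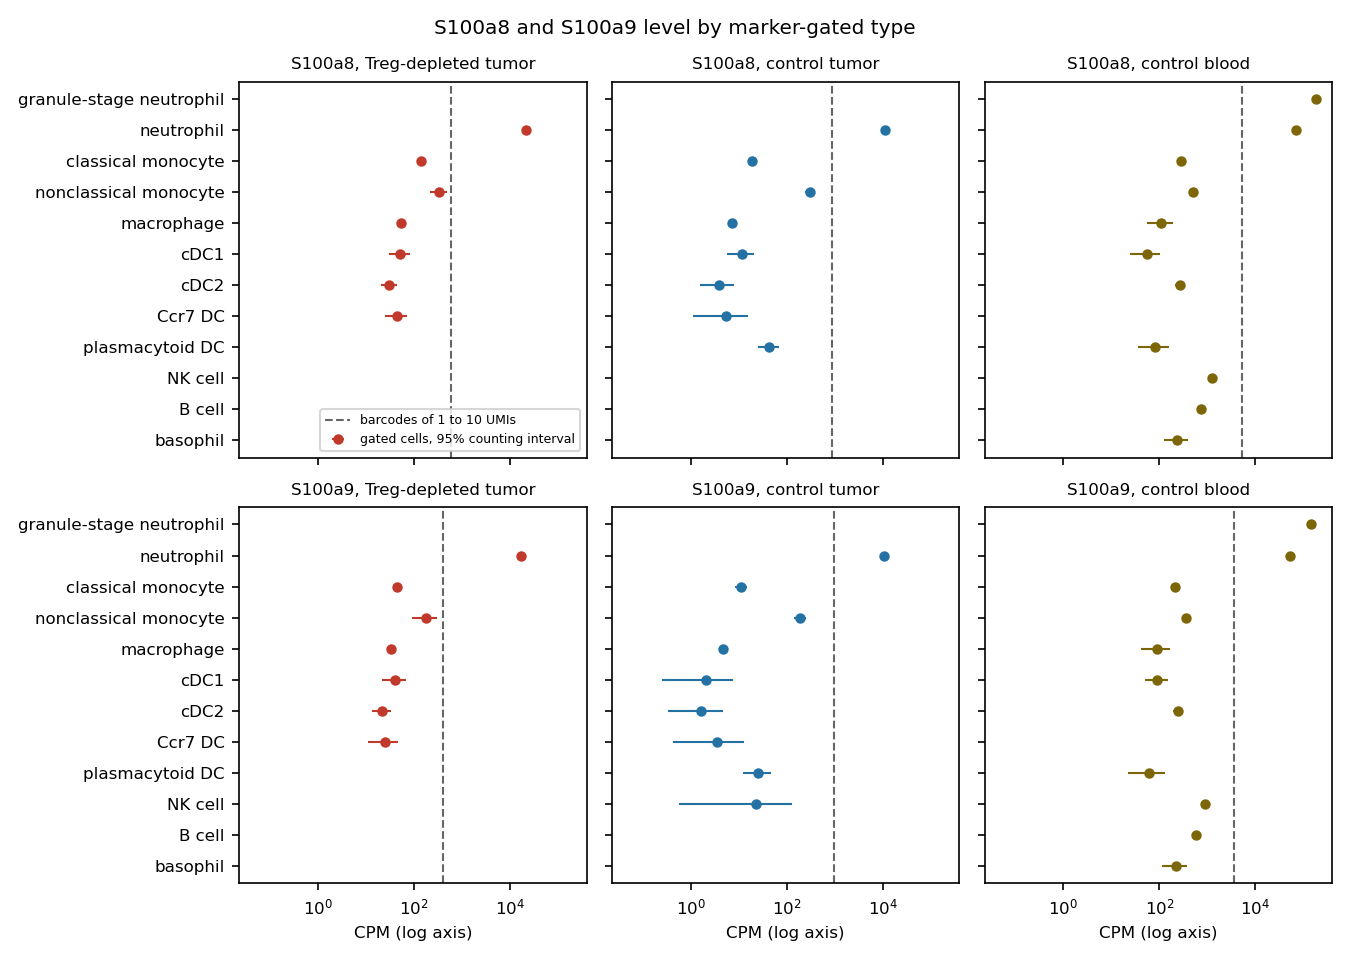
S100a8 (top) and S100a9 (bottom) in CPM on a log axis by marker-gated type and library. Points are summed levels with 95% Poisson intervals, the dashed line is the level in barcodes of 1 to 10 UMIs, and types with no UMI are left blank. Neutrophils lie right of the line and all other types left of it in each library, and NK cells of control blood (1242 CPM of S100a8) lie right of classical monocytes (288 CPM).

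A few cells held most of these UMIs. The 29 classical monocytes of blood with the most S100a8 (1% of them) held 57.2% of its UMIs, up to 140 in a cell. In the Treg-depleted tumor 16 cells held 52.3%, up to 156 in 1 cell, and in the control tumor 10 cells held 76.0%. Because UMIs came in such bundles, Poisson intervals are too narrow for these sums. In the Treg-depleted tumor 83.2% of classical monocytes had no S100a8 UMI, and 0.879% had at least 10. Of the neutrophils of that tumor 11.4% had none and 66.5% at least 10, and in blood 64.7% of classical monocytes had none and all 91 neutrophils at least 10.

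The ratios of S100a9 and Retnlg to S100a8 were also compared between types. Where the S100a8 counted in monocytes came from was not tested by them. Retnlg is among the markers of the neutrophil gate, so the gate itself draws cells with Retnlg into neutrophils. Its ratios in gated types, and the counts expected from them, are partly set in this way in all 3 libraries. Per 100 S100a8 UMIs, blood classical monocytes had 75.4 (71.5 to 79.5) of S100a9. Blood neutrophils had 75.4, granule-stage neutrophils 76.2, NK cells 72.5 and B cells 79.4. Retnlg, a resistin-like secreted protein of neutrophils, stood at 16.1 (14.7 to 17.7) per 100 S100a8 UMIs in blood classical monocytes, 18.2 in neutrophils, 8.61 in granule-stage neutrophils and 13.4 in NK cells. At the ratio of the neutrophils, the 3215 S100a8 UMIs of blood classical monocytes would come with 2424 of S100a9 and 586 of Retnlg, and 2425 and 519 were counted. The S100a9 ratio of the monocytes was that of the neutrophils, and their Retnlg ratio lay between those of the 2 kinds of neutrophil. Retnlg is not a neutrophil gene alone here, since basophil-gated cells of blood had 131 of its UMIs beside 14 of S100a8.

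In the Treg-depleted tumor the S100a9 and Retnlg ratios of monocytes differed from those of neutrophils. Its classical monocytes had 31.6 (27.6 to 36.0) S100a9 UMIs per 100 of S100a8, against 77.8 (75.4 to 80.4) in its neutrophils and 68.3 (51.3 to 90.5) in its barcodes of 1 to 10 UMIs. Retnlg was at 1.06 (0.508 to 1.97) per 100 in the monocytes and 6.67 (6.11 to 7.26) in the neutrophils. Other neutrophil transcripts did not go the same way. Retnlg, Ngp, Camp, Ltf and Lcn2 together were at 10.3 (8.28 to 12.7) per 100 in the monocytes and 8.04 (7.42 to 8.69) in the neutrophils. Lcn2 made up 83 of the 97 UMIs of this sum in monocytes and 77 of 674 in neutrophils. With the neutrophil ratio, 940 S100a8 UMIs would bring 732 of S100a9 and 62.7 of Retnlg, where 297 and 10 were counted. The 14 monocytes with at least 10 S100a8 UMIs had 86 S100a9 and 0 Retnlg UMIs beside 474 of S100a8, or 18.1 and 0 per 100. The 111 neutrophils chosen by the same number of UMIs had 75.9 and 6.44 per 100. Choosing cells by S100a8 lowers both ratios in either type, and a single monocyte supplied 156 of those 474 UMIs. Macrophages of that tumor had 62.7 (49.9 to 78.6) S100a9 and 3.43 (1.36 to 7.20) Retnlg UMIs per 100, with intervals that overlapped those of the neutrophils. Barcodes without a type in that library had 54.7 (49.0 to 61.1) and 0.658 (0.241 to 1.44) per 100, so a low Retnlg share was not seen in monocytes alone.

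In the control tumor, 96 S100a8 UMIs in classical monocytes came with 56 of S100a9, or 58.3 (41.2 to 81.9) per 100, and 0 of Retnlg, where the neutrophil ratio would give 8.43. Its neutrophils had 95.5 and 8.78 per 100. Retnlg, Ngp, Camp, Ltf and Lcn2 together were at 7.29 (2.86 to 15.6) per 100 in these monocytes and 11.6 (9.79 to 13.8) in the neutrophils. The barcodes of 1 to 10 UMIs of that library had 37.1 Retnlg UMIs per 100 of S100a8, above the 8.78 of its own neutrophils. What sets the ratio of the low barcodes was not tested.

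**Figure D3:**
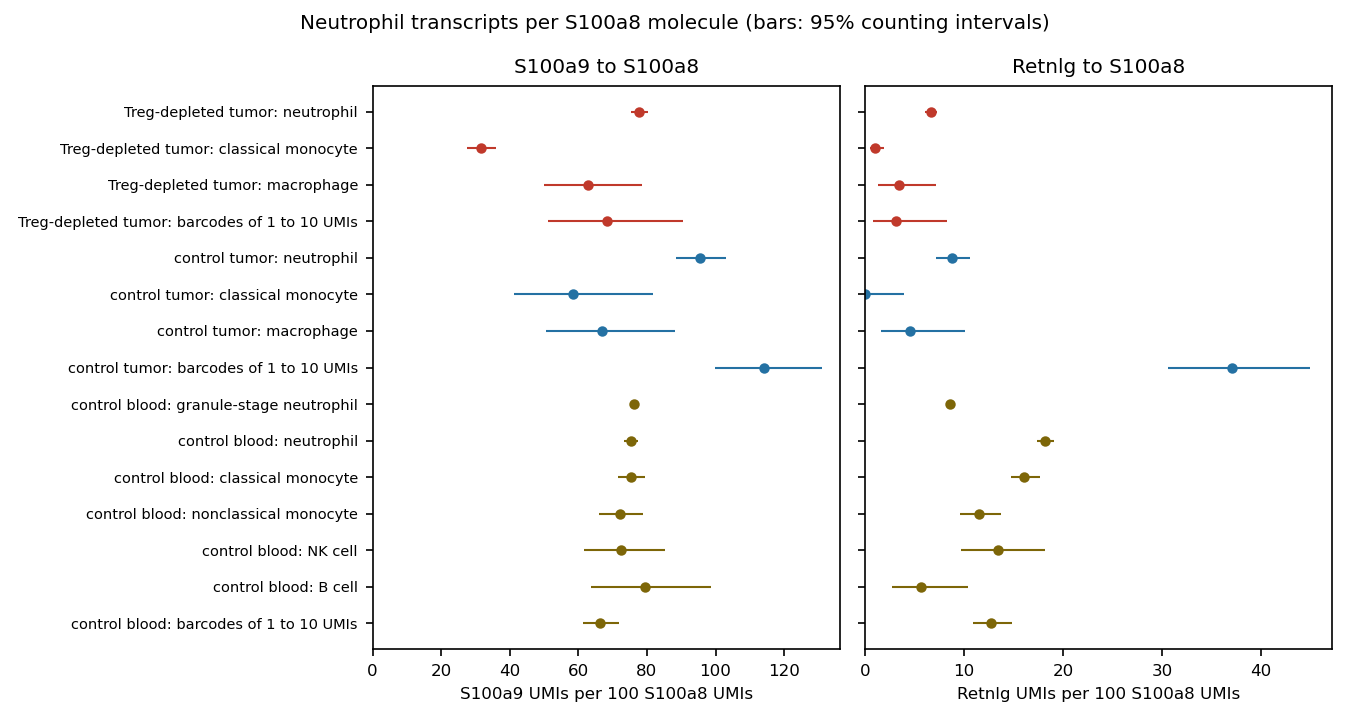
S100a9 (left) and Retnlg (right) UMIs per 100 S100a8 UMIs in each type with at least 90 S100a8 UMIs and in barcodes of 1 to 10 UMIs, with 95% counting intervals, by library (colors). Classical monocytes of the Treg-depleted tumor lie lowest for S100a9 at 31.6, whereas monocytes, neutrophils and lymphoid cells of control blood lie between 72.2 and 79.4.

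In classical monocytes the Treg-depleted tumor had more S100a8 and S100a9 than the control tumor. S100a8 was 138 against 19.4 CPM, a log2 ratio of 2.82 (2.52 to 3.14), and S100a9 43.5 against 11.3 CPM, a log2 ratio of 1.94 (1.52 to 2.38). These 2 of 8 members were at least 2-fold higher and none was 2-fold lower, where 10.5% of all 8564 genes counted were higher and 5.03% lower (15.5% in all). S100a6 was just below 2-fold, at 4882 against 2553 CPM and a log2 ratio of 0.94 (0.91 to 0.97). S100a10 was at 2195 against 1370 CPM (0.68), S100a11 at 1450 against 1253 CPM (0.21) and S100a13 at 250 against 219 CPM (0.19). S100a4, at 946 against 1073 CPM, had a log2 ratio of −0.18, and S100a1, at 35.4 against 50.4 CPM, of −0.51. The median over the members was 0.45 and over all genes 0.01.

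Barcodes with few UMIs gave no single direction for S100a8 and S100a9 in this pair. Barcodes of 1 to 10 UMIs had 599 CPM of S100a8 in the Treg-depleted tumor and 861 CPM in the control tumor, and for S100a9 409 and 985 CPM. Barcodes of 11 to 100 UMIs had 535 and 250 CPM of S100a8 and 538 and 311 CPM of S100a9, higher in the Treg-depleted tumor as in the monocytes. The part of free RNA in the result was not tested. The 8 neutrophil markers summed to 362 CPM in classical monocytes of the Treg-depleted tumor (3 of 8 at 20 CPM or more, none at 0) and 495 CPM in those of the control tumor (4 of 8, with 2 at 0), and their part in the result was not tested.

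The same direction was seen in dendritic cells, which are not known as a source of S100a8. It stood at 30.4 against 3.81 CPM in cDC2-gated cells (a log2 ratio of 3.00), 43.4 against 5.41 CPM in Ccr7 DC-gated cells and 52.2 against 11.7 CPM in cDC1-gated cells, all below the 138 CPM of monocytes in the Treg-depleted tumor. The last 2 rest on 16 against 3 and 17 against 11 UMIs, and 1 cDC1-gated cell held 14 of the 17. The cDC2-gated cells also carried monocyte markers. Classical monocyte markers summed to 2089 CPM in them in the Treg-depleted and 3217 CPM in the control tumor. Their Ly6c2 went the other way, at 304 and 138 CPM. The part of monocyte signal in the S100a8 of cDC2 was not tested. After thinning, 6.60% (5.43 to 7.93) of classical monocytes of the Treg-depleted tumor and 0.838% (0.362 to 1.64) of those of the control tumor held an S100a8 UMI, and before it 16.8% and 3.46%. Thinned shares in the Treg-depleted and the control tumor were 0.641% (0.0162 to 3.52) and 1.45% (0.300 to 4.18) of cDC2-gated cells, 6.00% (1.25 to 16.5) and 0% (0 to 6.49) of Ccr7 DC-gated cells, and 7.14% (0.877 to 23.5) and 0% (0 to 4.68) of cDC1-gated cells. The monocyte share of S100a8 in the Treg-depleted tumor was above that of cDC2, where 1 of 156 cells held it. It was within the intervals of the other 2 types, which hold 50 and 28 cells. For S100a9 the thinned shares were 2.58% (1.85 to 3.48) of monocytes and 3.21% (1.05 to 7.32) of cDC2. Before thinning, 10.9% of cDC2-gated, 28.0% of Ccr7 DC-gated and 14.3% of cDC1-gated cells of that tumor held S100a8. Median depths were 4066 and 4870 UMIs in monocytes and between 5890 and 11253 UMIs in the dendritic cells.

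Without the 1% of classical monocytes highest in S100a8 in each library, the log2 ratios were 3.82 for S100a8 and 3.25 for S100a9. With cells assigned by the number of markers alone they were 1.53 and 0.56, so that S100a9 was no longer 2-fold apart. Subtracting free RNA, estimated at 3.46% of monocyte UMIs in the Treg-depleted and 9.94% in the control tumor, left no S100a8 in the control tumor and gave a ratio of 7.49 that depends on the floor of 3 UMIs.

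More members differed between the tumors in macrophage-gated cells. The gated cells differed in marker levels between the tumors. The 8 macrophage markers summed to 4656 CPM in macrophages of the Treg-depleted tumor and 16992 CPM in those of the control tumor. The 8 classical monocyte markers summed to 3467 and 2150 CPM in the same cells. Whether the gate held other cells or the same cells at other marker levels was not tested, nor was the part of this in the differences below. Between the Treg-depleted and the control tumor 4 of 8 members were at least 2-fold higher and none lower, where 8.73% of 9464 genes were higher and 11.1% lower (19.8% in all). S100a6 stood at 4656 against 1403 CPM, a log2 ratio of 1.73 (1.70 to 1.76), and S100a4 at 678 against 293 CPM, a log2 ratio of 1.21 (1.14 to 1.28). S100a8 was at 54.0 against 7.10 CPM (2.93) and S100a9 at 33.9 against 4.75 CPM (2.84), and 1 cell of the control tumor held 53 of its 133 S100a8 UMIs. With free RNA subtracted both were left with no UMIs in either tumor and got no ratio. With the platelet list left out of that estimate they had ratios of 8.17 and 7.49, which depend on the floor of 3 UMIs in the control tumor. The same subtractions gave 11.99 and 1.80 for S100a6 and 9.23 and 1.38 for S100a4, the first of each where 95% of the UMIs of control tumor macrophages were taken as free. That 95% was also returned for NK cell-gated cells of all 3 libraries. It reads as a ceiling of the estimate, so the ratios of 11.99 and 9.23 do not measure levels. S100a10 (0.83), S100a11 (0.70) and S100a13 (0.40) were higher by less than 2-fold and S100a1 had a ratio of −0.52. The median over the members was 1.02, and over all genes −0.09.

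S100a6 and S100a4 were spread over many macrophages, unlike S100a8, which 4.45% and 0.439% of thinned macrophages held in the Treg-depleted and the control tumor. After thinning to 1000 UMIs, 93.3% of macrophages of the Treg-depleted tumor and 64.5% of those of the control tumor held S100a6, and 41.9% and 24.0% held S100a4. Median depths differed, at 3708 UMIs in the Treg-depleted tumor and 8565 UMIs in the control tumor. S100a6 was also higher in the barcodes of 1 to 10 UMIs, with 4752 CPM in the Treg-depleted and 1821 CPM in the control tumor, and the part of free RNA in its difference was not tested. In cDC1-gated cells of the same libraries S100a6 stood at 580 (500 to 669) and 383 (344 to 424) CPM, well under the macrophages. S100a4 was at 647 and 499 CPM in the low barcodes and at 58.3 and 91.6 CPM in cDC1-gated cells.

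**Figure D4:**
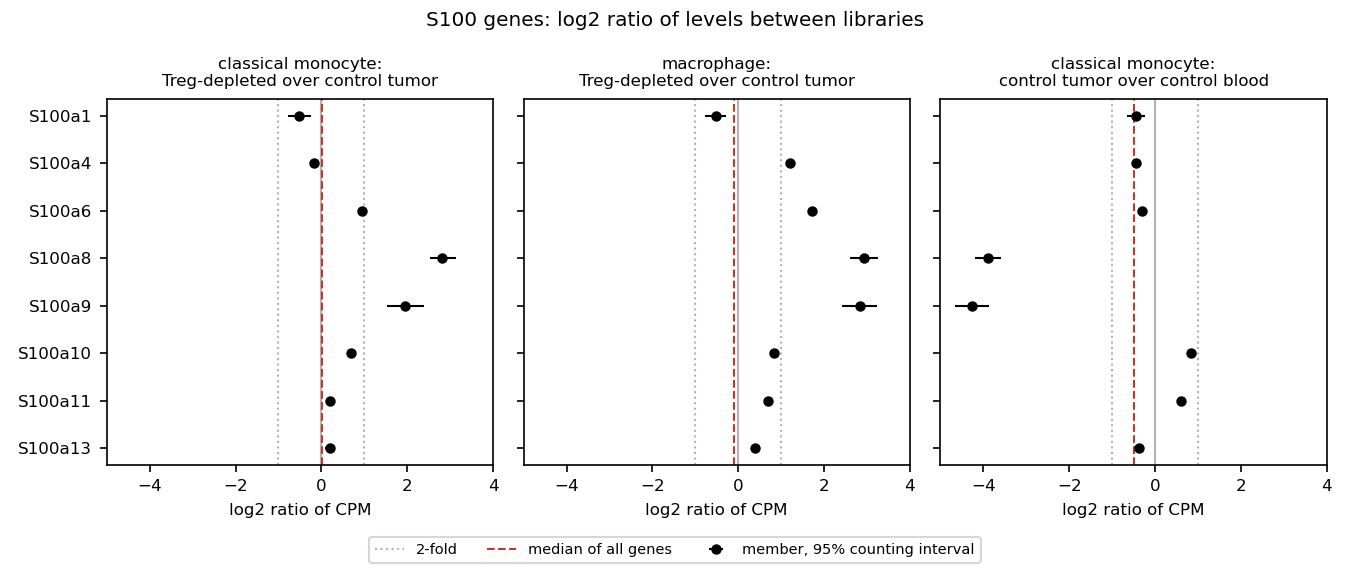
Log2 ratio of CPM for each S100 gene in 3 comparisons, with 95% counting intervals, 2-fold lines (dotted) and the median of all genes counted (dashed, 0.01, −0.09 and −0.48 from left to right). S100a8 and S100a9 lie right of 2-fold in both Treg-depleted over control tumor panels and left of it in control tumor over control blood, and S100a4 and S100a6 pass 2-fold in macrophages.

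Dendritic cells gave similar values for part of the family. In cDC2-gated cells S100a6 was at 5080 against 2601 CPM (0.97) and S100a10 at 1988 against 962 CPM (1.05, 0.96 to 1.14) in the Treg-depleted against the control tumor. S100a4 was at 944 against 1002 CPM, with an interval of the log2 ratio from −0.20 to 0.03. S100a8 had 31 against 7 UMIs and S100a9 22 against 3, so that 3 members were at least 2-fold higher and none lower, beside 9.33% and 10.7% of all genes (20% in all). In Ccr7 DC-gated cells S100a6 was at 2593 against 1559 CPM (0.73) and S100a10 at 1002 against 589 CPM (0.77). None of the 6 members at 20 UMIs or more was 2-fold apart there, beside 6.39% of all genes higher, 11.1% lower and 17.4% in all.

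Within each tumor, macrophages were set against classical monocytes. In the control tumor, macrophages had less S100a4, at 293 against 1073 CPM (a log2 ratio of −1.87), less S100a11, at 641 against 1253 CPM (−0.97), and less S100a6, at 1403 against 2553 CPM (−0.86). With S100a8 and S100a9, 3 members were at least 2-fold lower and none higher, beside 4.08% and 15.6% of all genes (19.7% in all). In the Treg-depleted tumor the same pair of types lay closer. S100a4 was at 678 against 946 CPM (−0.48), S100a11 at 1044 against 1450 CPM (−0.47) and S100a6 at 4656 against 4882 CPM (−0.07). S100a8 alone, at 54.0 against 138 CPM, was at least 2-fold lower and none higher, beside 3.51% and 4.00% of all genes (7.51% in all). The gate markers lay closer there too. Macrophage markers summed to 4656 CPM in macrophages and 991 CPM in monocytes of the Treg-depleted tumor. In the control tumor these sums were 16992 and 2443 CPM. The part of these marker differences in the S100 values was not tested.

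Over the 19 library-by-type values S100a4 was highest in classical monocytes of blood (1464 CPM). Classical monocytes of the control tumor (1073 CPM), cDC2 of the control tumor (1002), cDC2 of blood (966), classical monocytes (946) and cDC2 (944) of the Treg-depleted tumor and nonclassical monocytes of blood (887) followed, each with an interval that overlapped the next. Macrophages of the Treg-depleted tumor (678) came next, macrophages of the control tumor (293) were 14th of 19, and plasmacytoid dendritic cells of the control tumor were last (75.6). S100a10 was highest in classical monocytes (2195 CPM) and cDC2 (1988 CPM) of the Treg-depleted tumor, and S100a6 in blood neutrophils (5236 CPM) and cDC2 of the Treg-depleted tumor (5080 CPM). S100a11 was highest in blood neutrophils (6901 CPM) and granule-stage neutrophils (3919 CPM), and S100a13 in NK cells of blood (463 CPM).

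Between control tumor and control blood, classical monocytes had less S100a8 and S100a9 and more S100a10 and S100a11 in the tumor. S100a8 was at 19.4 against 288 CPM (a log2 ratio of −3.89, −4.20 to −3.60) and S100a9 at 11.3 against 217 CPM (−4.26). These 2 of 8 members were at least 2-fold lower and none higher, where 29.7% of all 9713 genes were lower and 11% higher, so that 40.6% passed 2-fold. The same genes were lower in cDC2-gated cells, where S100a8 had 3.81 against 269 CPM and S100a9 1.63 against 245 CPM, 2 members lower and none higher beside 8.83% and 24.6% of all genes (33.5% in all). Barcodes of 1 to 10 UMIs had 861 against 5277 CPM of S100a8. The difference in S100a8 ran the same way in monocytes, in cDC2-gated cells and in these barcodes, but not by like amounts. Its log2 ratio was −3.89 in monocytes and −6.14 in cDC2-gated cells. The part of free RNA in the difference was not tested.

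S100a10 in classical monocytes was at 1370 CPM in the control tumor against 762 CPM in control blood (0.85), and S100a11 at 1253 against 822 CPM (0.61). All genes had a median log2 ratio of −0.48 here, and with the libraries scaled by that median both passed 2-fold. S100a4 (1073 against 1464 CPM, −0.45), S100a6 (2553 against 3156 CPM, −0.31), S100a13 (219 against 284 CPM, −0.38) and S100a1 (50.4 against 68.6 CPM, −0.44) were near that median, and with that scaling were 0.03, 0.18, 0.11 and 0.04. Their direction between tumor and blood therefore depends on the scaling.

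Nonclassical monocytes of blood differed from classical ones most in S100a10. It stood at 178 against 762 CPM, a log2 ratio of −2.10 (−2.24 to −1.96), and S100a1 at 31.1 against 68.6 CPM (−1.14). S100a6 was at 1655 against 3156 CPM (−0.93), S100a11 at 465 against 822 CPM (−0.82) and S100a4 at 887 against 1464 CPM (−0.72). Thus 2 members were at least 2-fold lower and none higher, beside 7.99% and 4.82% of all genes (12.8% in all). Among the members only S100a8 and S100a9 had a higher level in nonclassical monocytes, where they lay below NK cells.

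Other genes of the S100 pathway were read as lists. Of 5 receptor genes (Tlr4, Ly96, Ager, Bsg, Cd36), 4 had at least 20 UMIs in each of the 3 main comparisons, and Tlr4 and Cd36 were at least 2-fold higher in each. Beside these 2 of 4, 10.5% of all genes were higher in classical monocytes between the tumors, 8.73% in macrophages and 11% in classical monocytes of control tumor over control blood. Tlr4, which senses S100a8 and S100a9, was at 58.1 against 26.9 CPM in classical monocytes of the Treg-depleted against the control tumor, at 49.8 against 11.6 CPM in macrophages, and at 26.9 against 7.52 CPM in classical monocytes of control tumor against control blood. Cd36, a scavenger receptor that binds fatty acids carried by S100a8 and S100a9, was at 361 against 93.7, 505 against 175 and 93.7 against 7.52 CPM. Ly96, the partner of Tlr4, was within 2-fold in each, and Ager had under 20 UMIs throughout. The medians of the counted receptors were 0.84, 0.89 and 1.25, beside −0.09 to 0.01 for all genes between the tumors and −0.48 between tumor and blood. The comparison between the tumors in monocytes and that with blood share the control tumor monocytes, so their values are not independent.

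Of 7 partner genes of the cytoskeleton and membrane (Anxa1, Anxa2, Anxa5, Anxa6, Anxa11, Ahnak, Myh9), all were counted in each of the 3. In classical monocytes of the Treg-depleted against the control tumor 0 were 2-fold apart, with a median of −0.18. In macrophages Ahnak, a large scaffold protein held at the membrane by S100a10 and annexin A2, was higher at 777 against 346 CPM (1.17), with a list median of 0.28. Anxa2 itself was at 1003 against 638 CPM (0.65). Between control tumor and control blood Anxa11 was higher in classical monocytes at 113 against 41.4 CPM (1.45), with a list median of −0.39. Of 8 further S100 genes (S100a3, S100a5, S100a7a, S100a14, S100a16, S100b, S100g, S100z) none reached 20 UMIs in these comparisons. Among the neutrophil comparisons, 5 of the 6 partner genes counted were at least 2-fold lower in neutrophils of the Treg-depleted tumor than in those of control blood, and 3 of 4 counted receptor genes were higher, beside 28.2% of all genes lower and 37.2% higher. Against classical monocytes of the same library, neutrophils of the Treg-depleted tumor had 6 of 7 partner genes lower, 1 of 4 receptor genes higher and 1 lower, beside 42.3% of all genes lower and 9.49% higher. In blood, neutrophils had 1 of 7 partner genes higher and 2 lower than classical monocytes and 0 of 2 receptor genes apart, beside 22.8% and 21.2% of all genes. Granule-stage neutrophils had 1 of 6 partner genes higher and 2 lower than the other blood neutrophils, beside 5.75% and 34.0%.

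Genes with a pattern most like that of S100a8 over the 19 library-by-type values, among 5271 genes that reached 50 CPM, were Retnlg (Pearson r = 0.959), Mmp9 (0.932), Wfdc21 (0.929), 2310001H17Rik (0.911) and Slc2a3 (0.907). Retnlg and Mmp9 were among the markers that define neutrophils here. Those most like S100a4 were Ccdc109b (0.865), Ms4a4c (0.844), Emb (0.825), Siva1 (0.820) and Ggh (0.799), of which Ms4a4c is a marker of the classical monocyte gate. S100a4 and S100a6 had a correlation of 0.57 with each other, S100a4 and S100a10 of 0.51, and S100a8 and S100a10 of −0.56. These values share libraries and depth and are given as a description.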

How the data were processed

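The authors' deposited matrices hold whole-number counts, 1 per UMI, for 27998 genes and 737280 barcodes in each of 3 libraries (10x 3′ v2 chemistry, per the labels' protocols). Reads were processed with Cell Ranger 1.2 and mm10, per the submitters' processing notes. Total UMIs were 23291061 in the Treg-depleted tumor, 42493416 in the control tumor and 22944387 in control blood. The S100 genes and all gene lists were chosen with earlier results of these data known. Each of 17 lists had 8 markers (134 of 136 found). A barcode took the list with most distinct markers (at least 3) if that list also had the highest mean z score of log counts per 10000, and was otherwise left out as mixed (973, 1059 and 996 barcodes) or ungated (532, 64 and 157). This gate was set after the data were seen. No doublet caller was run. Mixed barcodes of control blood held 10459 S100a8 UMIs, more than the 3215 of its classical monocytes.

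Counts were summed per library and type. Log2 ratios of CPM carry exact conditional intervals, levels Poisson and shares Clopper-Pearson ones, all at 95%. A count of 0 was set to 3 UMIs in a ratio. A gene was counted as 2-fold apart with at least 20 UMIs in the higher library. Named were all 8 members, list genes at least 2-fold apart in the 3 main comparisons and the 5 genes most correlated with S100a8 and with S100a4. Python 3.11.15, numpy 2.4.6, scipy 1.17.1 and pandas 2.3.3 were used. The fold rule was tested on simulated Poisson counts. These hold no bundling of UMIs in a few cells, so that test does not cover genes such as S100a8.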

Additional observations from a re-analysis of the deposited data

Results flagged for a closer look

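S100a4 differed between types under the same contrast. In the Treg-depleted over the control tumor its log2 ratio was −0.18 (−0.23 to −0.13) in classical monocytes, at 946 against 1073 CPM, and 1.21 (1.14 to 1.28) in macrophages, at 678 against 293 CPM. The 2 types moved in opposite directions, with 1 library per group, and the difference was not tested. Macrophage markers summed to less in macrophages of the Treg-depleted than of the control tumor (4656 against 16992 CPM). Classical monocyte markers summed to more in them (3467 against 2150 CPM), and the part of these marker differences was not tested. With cells assigned by the number of markers alone the monocyte value was 0.06.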

How the results depend on the processing

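No paired analysis was possible because each group has 1 library. Of 310 gene-level log2 ratios recomputed under the alternatives, 212 stayed within their counting interval, 93 moved beyond it in the same direction and 5 reversed. The reversed ones were S100a1 (0.04), S100a4 (0.03), S100a6 (0.18) and S100a13 (0.11) in classical monocytes of control tumor over control blood with median-of-ratios scaling, and S100a4 (0.06) in classical monocytes of Treg-depleted over control tumor with cells assigned by the number of markers alone. That scaling also gave 4 members 2-fold apart, S100a10 and S100a11 being the added ones, in classical monocytes of control tumor over control blood, in place of 2. The other counts of members stayed within 1.5 times. In macrophages they were 6 without cells meeting a second gate and 6 with free RNA subtracted, where S100a8 and S100a9 dropped out with no UMIs left in either tumor. The free share was then put at 18.7% in macrophages of the Treg-depleted and 95% in those of the control tumor, and 0.104% and 13.9% without the platelet list. The 95% reads as a ceiling of the estimate and not as a measured share, since NK cell-gated cells got the same value. The S100a8 excess of blood neutrophils over classical monocytes (8.83) was 8.89 with a library-specific UMI minimum, 9.31 and 8.42 with 2 and 4 markers per gate, 9.01 with cells weighted equally, 10.92 and 15.23 with free RNA subtracted from barcodes of 1 to 10 and of 11 to 100 UMIs. It was 7.69 by marker number alone, 7.73 by z score alone, 11 with free RNA subtracted without the platelet list and 10.02 without the 1% of cells highest in S100a8. The 15.23 has nearly no S100a8 left in the monocytes and does not measure a level. In the Treg-depleted tumor (7.31) the corresponding values were 7.12 with 2 markers, 7.10 without cells meeting a second gate, 7.15 with equal weights, 7.54 and 9.75 with the 2 subtractions, 6.46 by z score alone and 8.10 without the 1% of cells. The alternatives by marker number alone, by z score alone, without the platelet list and without the top 1% of cells were chosen after seeing the data. The causes were not tested. The 19.4 CPM of S100a8 in classical monocytes of the control tumor rest on 96 UMIs, which limits the ratios built on them.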
